A study of Mus musculus with 46 samples.

Results

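The nuclear genes of respiratory chain complexes I to IV were followed through 16 comparisons of mouse cancer cells and fibroblasts that had lost Arid1a, which encodes a part of BAF chromatin remodelling complexes, or had been treated in other ways. A gene was a member if its symbol starts with Nduf or Uqcr, is Sdha, Sdhb, Sdhc or Sdhd, or starts with Cox4, Cox5, Cox6, Cox7 or Cox8. Its mean over the sample columns of a table also had to reach 4, on the log2 scale of the deposited values or as log2(CPM + 1) in the BD98 table. The members were thus chosen by name and by their mean level over all libraries of a table, and that level is given as a description. Of 24537 gene rows, 76 had a fitting symbol and 72 of them were members in at least 1 of the 8 tables. There were 63 members in all 8 tables, 72 in the tumor table, 69 in the MC38 table, 63 in the BD98 table and 68 in each of the others.

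The respiratory chain sits in the inner mitochondrial membrane and passes electrons from nutrients to oxygen while pumping protons. Complex I (NADH dehydrogenase; Nduf genes) has a catalytic core, many accessory subunits and separate assembly factors. Complex II (succinate dehydrogenase; Sdha to Sdhd) is also an enzyme of the tricarboxylic acid cycle, complex III (Uqcr genes) passes electrons to cytochrome c, and complex IV (cytochrome c oxidase; Cox genes and Ndufa4) reduces oxygen. Several complex IV subunits exist as isoforms that differ between tissues, such as Cox6a2 and Cox7a1 of heart and skeletal muscle beside the widespread Cox6a1 and Cox7a2. The subunits encoded in mitochondrial DNA are not among the members.

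RNA was sequenced from 2 libraries in each of 21 groups, 42 libraries in all, from polyA-selected RNA. Nothing in the labels says that the 2 libraries of a group came from separate cultures or animals, so p-values measure only the spread between these libraries, which may be technical. Whether a guide population was a pool or 1 clone is not given in the sources used here. The groups of B16F10 melanoma cells were as follows. Subcutaneous tumors carrying a guide RNA against Arid1a (sgArid1a) or a scrambled guide (sgScramble) were taken at day 15. Cultures with either guide label were labelled as given murine IFNγ for 24 h or PBS. Cultures labelled sgArid1a/sgCgas (Cgas dKO) or sgArid1a/sgSting (Sting dKO), whose cell line labels run from B16F11 to B16F14, stood beside untreated sgArid1a and sgScramble cultures. Cells with sgArid1a received anti-IFNAR antibody, which blocks the type I interferon receptor, for 72 h. In another experiment sgArid1a cells received ruxolitinib (spelled ruxilitinib in the labels), an inhibitor of the kinases JAK1 and JAK2, or DMSO for 72 h, and sgScramble cells received DMSO. In the BD98 experiment sgScramble cells received BD98, a compound known here only by that code name, with or without anti-IFNAR, or DMSO, for 72 h. MC38 colon cancer cells carried sgArid1a or sgScramble. Arid1a fl/fl mouse embryonic fibroblasts (MEFs) were sampled at day 5 after tamoxifen (Arid1a -/-) or ethanol (WT). The untreated libraries appear in both the double-knockout and the anti-IFNAR tables.

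Library totals in the file headers were 8.7 to 38.8 M (mega) reads. All 7 melanocyte markers were above the level minimum in the B16F10 tables, whereas Epcam and Krt19 were listed at 0 in the MC38 libraries and none of the tested epithelial markers reached the minimum there. Arid1a RNA was lower in sgArid1a or Arid1a -/- libraries in tumors (log2 fold change -0.32), untreated cultures (-0.58), MC38 cells (-0.14) and MEFs (-0.43). It was not called in the DMSO cultures (-0.26, limma adjusted p = 0.24), and in the table of the IFNγ experiment it did not follow the guide labels (0.09 with the IFNγ label and -0.08 with the PBS label, neither called). Nor did the IFNγ target Irf1 there follow the treatment labels alone. Irf1 had 13.04 and 12.97 log2 units in libraries labelled sgArid1a IFNγ, 10.13 and 10.07 in sgScramble IFNγ, 12.53 and 12.34 in sgArid1a PBS and 9.81 and 9.81 in sgScramble PBS. It thus differed by 0.57 and 0.29 between treatment labels, with the sgArid1a and the sgScramble label, but by 2.90 and 2.63 between guide labels, with the IFNγ and the PBS label (limma adjusted p = 5.5e-16 with the PBS label). In the double-knockout libraries Arid1a was higher than in sgArid1a cultures, by 0.47 with the Cgas dKO label and 0.36 with the Sting dKO label. Mb21d1 (Cgas) RNA differed by 0.00 in the libraries labelled Cgas dKO, and Tmem173 (Sting) was lower (log2 fold change -0.54) in those labelled Sting dKO. Groups of the IFNγ and double-knockout experiments are therefore called by their labels throughout, and differences between them are differences between labels.

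Promoters are shown for 4 members whose RNA is described further on, because the genes of the chain are known for shared promoter elements. These are bound by NRF1 (nuclear respiratory factor 1) and by ETS-family factors such as GABP (also called NRF2), which act on many nuclear genes of mitochondrial proteins. RefSeq promoter windows on GRCm38.p6, which run from 250 bases before the start to 50 after it, were matched for 58 of the 72 members. The 250 bases before the start of Sdhd (chr9:50603850-50604099, minus strand), Cox6a1 (chr5:115348959-115349208, minus strand), Ndufb6 (chr4:40279422-40279671, minus strand) and Ndufaf4 (chr4:24897833-24898082, plus strand) follow, 5′ to 3′ on the gene's strand. Capitals mark a match on either strand to the NRF1 motif (GCGC, any base, then TGCGC) or to the ETS core motif CCGGAAG, which do not overlap here.
Sdhd: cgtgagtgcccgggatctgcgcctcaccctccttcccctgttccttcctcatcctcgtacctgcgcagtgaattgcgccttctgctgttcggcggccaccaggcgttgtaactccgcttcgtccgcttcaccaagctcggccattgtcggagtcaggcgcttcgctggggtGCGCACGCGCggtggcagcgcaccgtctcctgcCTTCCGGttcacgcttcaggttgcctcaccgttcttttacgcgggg
Cox6a1: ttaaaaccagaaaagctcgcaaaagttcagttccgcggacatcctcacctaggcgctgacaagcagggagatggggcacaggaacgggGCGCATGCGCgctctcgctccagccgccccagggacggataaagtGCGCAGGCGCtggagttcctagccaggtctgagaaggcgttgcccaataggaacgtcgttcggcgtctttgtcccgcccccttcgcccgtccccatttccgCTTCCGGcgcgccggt
Ndufb6: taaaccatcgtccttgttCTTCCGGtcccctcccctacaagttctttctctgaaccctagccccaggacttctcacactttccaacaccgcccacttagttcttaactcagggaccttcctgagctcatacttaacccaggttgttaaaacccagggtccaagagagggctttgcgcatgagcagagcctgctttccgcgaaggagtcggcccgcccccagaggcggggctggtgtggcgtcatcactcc
Ndufaf4: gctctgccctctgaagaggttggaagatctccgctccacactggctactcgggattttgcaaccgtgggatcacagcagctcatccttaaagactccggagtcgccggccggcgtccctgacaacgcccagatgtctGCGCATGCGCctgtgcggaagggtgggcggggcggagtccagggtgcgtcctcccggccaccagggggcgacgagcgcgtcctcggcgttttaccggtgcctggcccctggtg

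The Sdhd and Cox6a1 windows held both motifs, and no other member's window did. The NRF1 motif was present in 13 of the 58 windows (22.4%), against 6.7% of 17564 promoter windows of the same length. The ETS motif was present in 13 windows (22.4%), against 11.9% of all. In all, 24 windows held at least 1 of them, among them those of the complex I genes Ndufa5, Ndufa6, Ndufa8 and Ndufs8, of Sdha and Sdhb of complex II, and of Uqcrc1 and Uqcrh of complex III. The sequence CAGCTG, a form of the E-box bound by myogenic factors, was present in 4 (6.9%), against 15.7% of all windows. The median GC content was 58.7% over the members' windows and 56.7% over all windows.

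Per transcript length, most members were among the more abundant RNAs. In tumors their median percentile among the genes tested was 96.8, on the scale of log2 level per kilobase. Ndufa4, a subunit now placed in complex IV, had the highest such level of any member in the tumor (15.17), IFNγ (14.74) and BD98 (10.14) tables, and Cox4i1, the widespread form of a regulatory subunit, in the MC38 (12.91) and MEF (12.32) tables. The accessory subunit Ndufab1, which is also the mitochondrial acyl carrier protein, ranged over percentiles from 25.5 to 78.9.

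Cox7c, a small complex IV subunit, differed most in rank between tables. It was at the 97.8th percentile in MC38 cells and the 97.4th in MEFs, but at the 17.6th in tumors, the 14.7th in the IFNγ table and the 24.2nd in the JAK inhibitor table. In the anti-IFNAR table, also of B16F10 cultures, it was at percentile 90.1. The ranks thus differed between tables of the same cell line as well. In the BD98 table it was no member, with 13 to 34 reads a library. Tables were normalized separately, and 55.7% of the 31-base words of the Cox7c transcript also occur in transcripts of another gene. Reads from such stretches cannot be placed on 1 gene, and how they were handled is not given in the sources used here. The part of this sharing in the differences of rank was not tested.

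**Figure D1:**
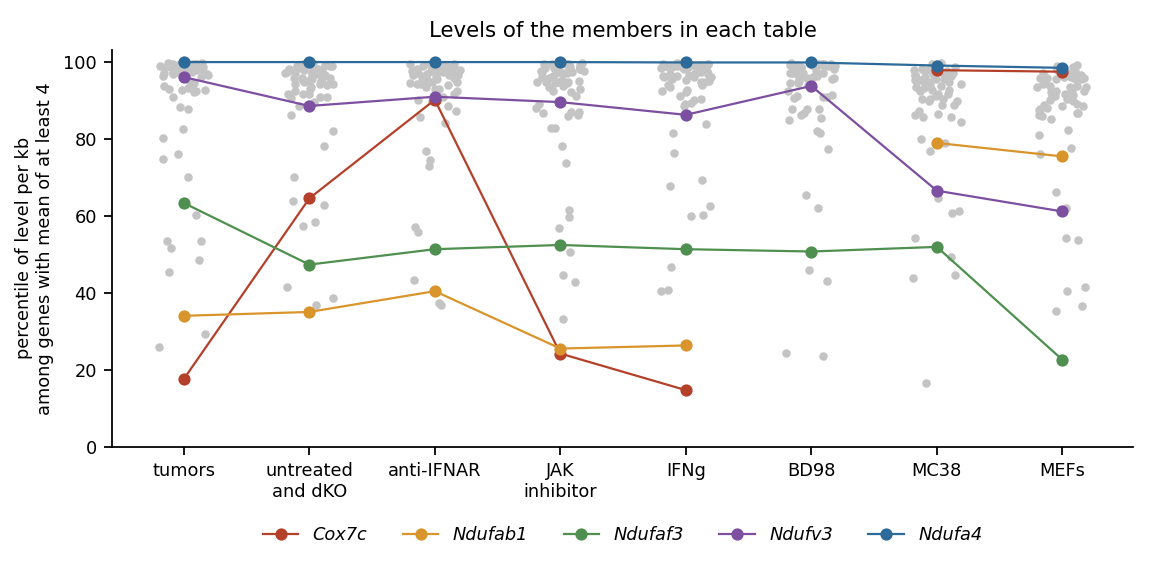
Percentile of each member's level per kilobase among genes with a mean of at least 4 in the same table, for the 8 tables (grey points are members, coloured lines follow 5 named members). Cox7c lies at 97.8 and 97.4 in MC38 cells and MEFs and at 14.7 to 24.2 in the IFNγ, tumor and JAK inhibitor tables. In the anti-IFNAR table, also of B16F10 cells, it lies at 90.1. Ndufa4 stays near the top of each table.

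Some isoforms reached the level minimum in tumors but not in the B16F10 cultures, in tables that were normalized separately. Cox6a2, Cox7a1, Cox4i2 and Ndufa4l2 were members in tumors, with means of 5.81, 6.44, 6.27 and 8.31 log2 units. In the B16F10 cultures their means were at most 2.95, the value of Ndufa4l2 in the IFNγ table. Ndufa4l2 is a hypoxia-induced relative of Ndufa4, and Cox4i2 is an isoform of Cox4i1 found in lung and in oxygen-sensing cells. Cox6a2 was also a member in MC38 cells, with 4.43 and 4.41 in sgArid1a cells against 4.44 and 4.42 in sgScramble cells. Closest to the level minimum in tumors were Cox7c at 4.30 inside it and Cox8b, the muscle form of Cox8a, at 3.57 outside it. In the BD98 table these were Ndufaf3 at 4.57 and Ndufaf8 at 3.89, and in MEFs Ndufaf3 at 5.62 and Cox6b2 at 3.79. Cox6b2, Cox7b2, Cox8b and Cox8c reached the minimum in no table.

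**Figure D2:**
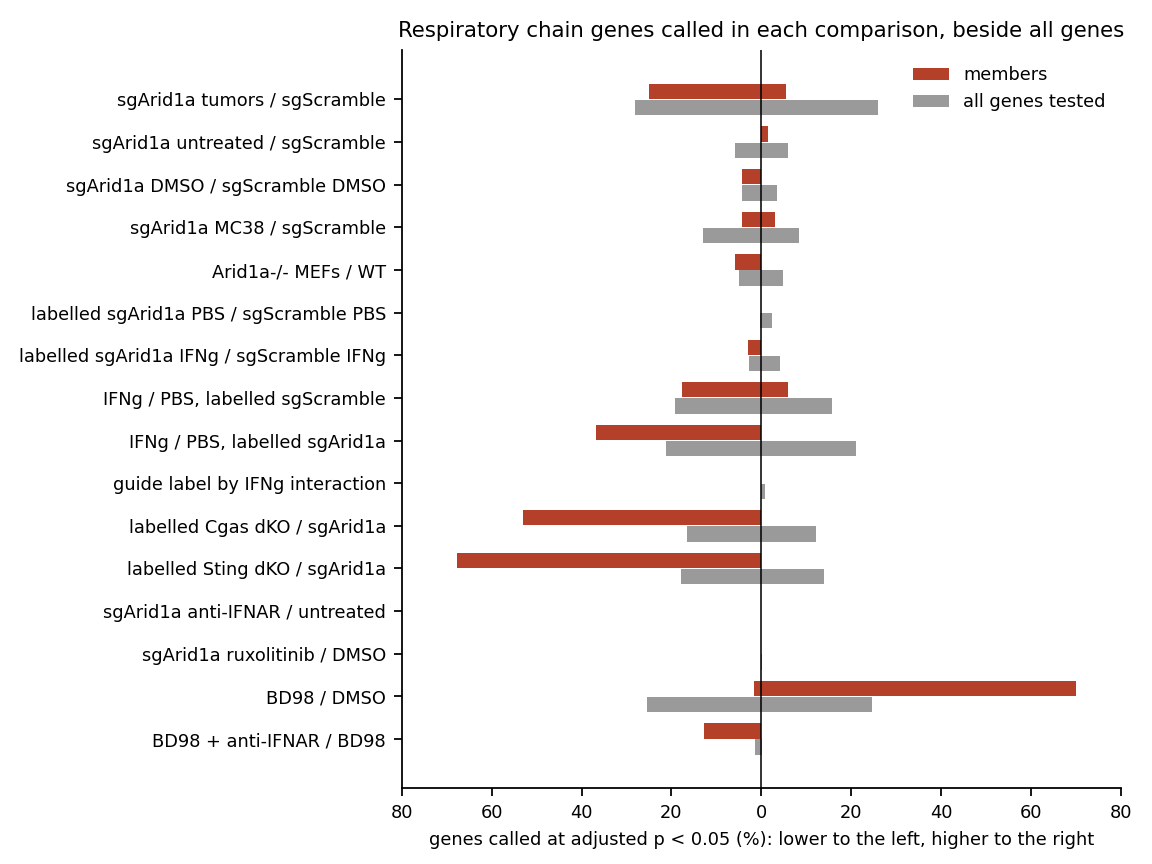
Share of the members (red) and of all genes tested (grey) called at an adjusted p under 0.05 in each of the 16 comparisons, lower to the left and higher to the right. The largest shares of members were 44 of 63 higher with BD98, against 24.5% of all genes, and 46 of 68 lower with the Sting dKO label, against 17.9% of all genes. In the BD98 experiment all genes tested include genes below the level minimum that members had to reach.

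In tumors, the question was how the chain differs when melanoma cells that grow in the animal carry the Arid1a guide. Complex I and its assembly factors held most of the falls, but they also make up most of the members. Lower were 5 of 7 core subunits, 4 of 8 assembly factors and 5 of 29 accessory subunits. Complex II had no fall, but its 4 members are too few to set this apart from the share of all genes called lower. Complex IV moved in both directions, with the muscle isoforms higher. Differences between the complexes in their share of falls were not tested. In sgArid1a tumors 4 of 72 members were called higher (26.0% of all genes tested) and 18 lower (28.1% of all genes tested) at a Benjamini-Hochberg adjusted p under 0.05 from limma, so the share of falls was near the background and that of rises below it. The median log2 fold change was -0.07 over the members and -0.02 over all genes. In bulk tumors, fewer cells of a type and less RNA per cell cannot be told apart.

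Complex I core subunits were lower in 5 of 7 cases. Ndufs8, which carries iron-sulfur clusters, had 11.41 and 11.51 log2 units in sgArid1a tumors, against 11.84 and 11.75 in sgScramble tumors (-0.34 ± 0.06, SE; limma adjusted p = 0.00075). Ndufv1, the NADH-binding subunit, had 11.71 and 11.81 in sgArid1a tumors against 12.09 and 11.98 in sgScramble tumors (-0.28, limma adjusted p = 0.0029). The groups did not overlap for either gene. Ndufs3, Ndufs7 and Ndufv2 fell by 0.22, 0.20 and 0.17, whereas Ndufs1, the largest subunit, differed by 0.05 and was not called.

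Among 29 accessory subunits 5 fell and 1 rose. Ndufb7 had 11.68 and 11.78 in sgArid1a tumors, against 12.38 and 12.27 in sgScramble tumors (-0.59 ± 0.06, limma adjusted p = 1e-05). Ndufa1, encoded on the X chromosome, had 11.45 and 11.45 in sgArid1a tumors against 11.07 and 11.06 in sgScramble tumors (0.38 ± 0.06, limma adjusted p = 0.00016). These subunits of the same complex thus differed in opposite directions with no overlap between groups, which was common over all genes in tumors. Ndufa8, Ndufa13, Ndufb8 and Ndufb2 fell by 0.33, 0.29, 0.22 and 0.19. Of 8 assembly factors, 4 fell, led by the methyltransferase-like Ndufaf5, with 9.41 and 9.29 in sgArid1a tumors against 9.71 and 9.69 in sgScramble tumors (-0.35, limma adjusted p = 0.0013), and followed by Ndufaf6, Ndufaf2 and Ndufaf8 with falls of 0.27, 0.22 and 0.19.

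None of the 4 complex II subunits was called by limma (0 at an unadjusted p under 0.05); Sdha differed by 0.00 and Sdhb by -0.11. In complex III, 2 of 8 subunits fell: the core protein Uqcrc1, with 12.99 and 13.10 in sgArid1a tumors against 13.38 and 13.24 in sgScramble tumors (-0.26, limma adjusted p = 0.0055), and Uqcr11 (-0.18). The Rieske iron-sulfur protein Uqcrfs1 differed by -0.05 and was not called.

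Complex IV had 3 rises and 2 falls among 16 members. Cox6a2 had 6.43 and 6.47 in sgArid1a tumors, against 5.15 and 5.2 in sgScramble tumors (1.27 ± 0.06, limma adjusted p = 9.8e-09), the largest difference of any member in tumors. Cox7a1 had 6.57 and 6.63 in sgArid1a tumors against 6.36 and 6.21 in sgScramble tumors (0.31 ± 0.07, limma adjusted p = 0.0029), and Cox6a1 13.13 and 13.25 in sgArid1a tumors against 13.07 and 12.90 in sgScramble tumors (0.21 ± 0.07, limma adjusted p = 0.023). Both muscle isoforms and the widespread Cox6a1 were thus higher. Cox4i1 had 13.88 and 13.94 in sgArid1a tumors against 14.35 and 14.25 in sgScramble tumors (-0.39 ± 0.06, limma adjusted p = 0.00019), and Ndufa4l2 7.86 and 8.06 in sgArid1a tumors against 8.70 and 8.63 in sgScramble tumors (-0.71 ± 0.08, limma adjusted p = 1.9e-05). Not called were Ndufa4 (0.14), Cox4i2 (-0.12), Cox5a (0.10), Cox6c (0.06), Cox7a2 (-0.01), Cox7a2l (-0.05) and Cox8a (-0.06).

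Markers of other cells moved with the same groups. All 15 skeletal muscle markers were higher in sgArid1a tumors, with a summed level of 13.91 and 13.91 log2 units against 11.18 and 11.14 in sgScramble tumors. Of the macrophage markers 10 of 11 were higher (14.91 and 14.95 in sgArid1a tumors against 14.06 and 14.03 in sgScramble tumors), while 5 of 5 tested erythroid markers were lower. Of the 7 melanocyte markers 1 was higher and 3 were lower, with sums of 19.22 and 19.24 in sgArid1a tumors against 19.68 and 19.65 in sgScramble tumors. In the B16F10 cultures the fast muscle myosins Myh1, Myh2 and Myh4 were listed at 0. The part of these cells in the differences of Cox6a2, Cox7a1 or the other members was not tested.

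Outside the 4 complexes, 2 of 16 ATP synthase genes were higher and 7 lower (median -0.16), and 1 of 76 mitochondrial ribosomal protein genes was higher and 39 lower (median -0.18). Among 82 cytosolic ribosomal protein genes 1 was higher and 57 lower (median -0.26). The members' median of -0.07 lay nearer to 0 than those of these lists. It lay further from 0 than the medians of assembly factors outside the members (-0.055), the tricarboxylic acid cycle (-0.058) and regulators of mitochondrial gene expression (-0.047). Leaving out sgArid1a tumor replicate 1 lowered the count of members called lower to 11, and quantile normalization gave 10 called higher.

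**Figure D3:**
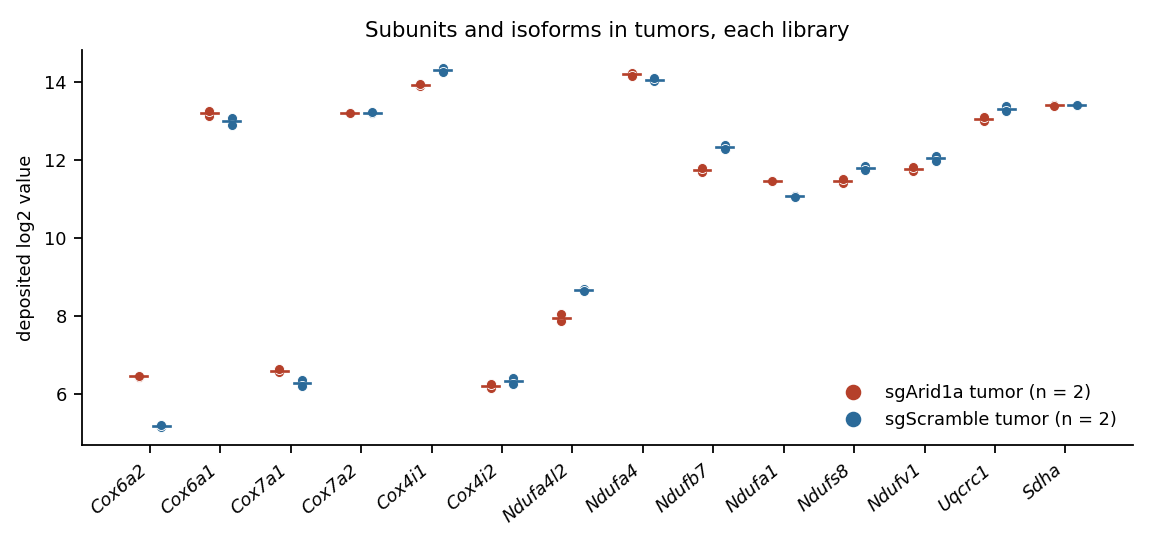
Deposited log2 values of 14 subunits and isoforms in each sgArid1a tumor library and each sgScramble tumor library (points; short lines are means, n = 2 a group). Cox6a2 lies at 6.43 and 6.47 in sgArid1a tumors above 5.15 and 5.2 in sgScramble tumors, while Ndufa4l2, Cox4i1 and Ndufb7 lie lower in sgArid1a tumors and Sdha lies level.

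In cells outside the animal few members were called between Arid1a guides or genotypes when replicate numbers were not used as a block. In untreated B16F10 cultures 1 of 68 members was higher (5.84% of all genes tested) and 0 lower (5.98% of all genes tested); limma gave 4 and 3 at an unadjusted p under 0.05. The 1 call was Sdhd, a membrane anchor of complex II, with 11.90 and 11.93 in sgArid1a cultures against 11.54 and 11.61 in sgScramble cultures (0.34 ± 0.09, limma adjusted p = 0.030). Its groups did not overlap, and 27.7% of all genes tested were separated to the higher side in this comparison. Without sgArid1a untreated replicate 1 or 2, or without sgScramble untreated replicate 1, no member was called higher. Without sgScramble untreated replicate 2, which leaves the shallowest library as the only sgScramble culture, 10 were higher and 4 lower.

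In the DMSO cultures 0 of 68 members were higher (3.50% of all genes tested) and 3 lower (4.38% of all genes tested), against 5 and 18 at an unadjusted p under 0.05 with limma. Uqcrq, a small complex III subunit, had 11.99 and 12.06 in sgArid1a cultures against 12.36 and 12.81 in sgScramble cultures (-0.56 ± 0.13, limma adjusted p = 0.020). The complex I accessory subunits Ndufa6 (10.73 and 10.66 in sgArid1a cultures against 10.94 and 11.32 in sgScramble cultures) and Ndufc2 (10.95 and 10.90 in sgArid1a cultures against 11.13 and 11.57 in sgScramble cultures) fell by 0.44 and 0.43. For all of them sgScramble DMSO replicate 2 was the highest library. The mean over all members was 10.188 and 10.203 in sgArid1a DMSO libraries, against 10.177 and 10.427 in sgScramble DMSO libraries, so replicate 2 also stood apart over the members' mean. Without sgScramble DMSO replicate 2, 4 members were called higher; without sgScramble DMSO replicate 1, 34 were lower and 1 higher, and without either sgArid1a library 0 were lower.

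In MC38 cells 2 of 69 members were higher (8.33% of all genes tested) and 3 lower (12.9% of all genes tested), all by less than 0.12. Ndufa13, an accessory subunit also known as GRIM-19, had 10.65 and 10.61 in sgArid1a cells against 10.54 and 10.54 in sgScramble cells (0.09 ± 0.03, limma adjusted p = 0.044), and Uqcr10 had 10.49 and 10.51 in sgArid1a cells against 10.41 and 10.40 in sgScramble cells (0.09, limma adjusted p = 0.027). The calls to the lower side were Uqcrfs1 (10.38 and 10.36 in sgArid1a cells against 10.45 and 10.50 in sgScramble cells, -0.11), Cox5a (10.33 and 10.36 in sgArid1a cells against 10.44 and 10.46 in sgScramble cells, -0.11) and Ndufa10 (-0.09). Without sgArid1a MC38 replicate 1 or 2 no member was called in either direction, without sgScramble MC38 replicate 2 the count of higher members was 5, and without sgScramble MC38 replicate 1 it was 1.

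In MEFs 0 of 68 members were higher (4.69% of all genes tested) and 4 lower (5.01% of all genes tested), against 0 and 15 at an unadjusted p under 0.05 with limma. Ndufc2 had 9.18 and 9.15 in Arid1a -/- MEFs against 9.45 and 9.37 in WT MEFs (-0.24 ± 0.06, limma adjusted p = 0.020). Uqcrc2, a core protein of complex III, had 11.02 and 10.98 in Arid1a -/- MEFs against 11.27 and 11.20 in WT MEFs (-0.23), Cox6b1 10.87 and 10.87 in Arid1a -/- MEFs against 11.10 and 11.08 in WT MEFs (-0.22), and Ndufs4 9.15 and 9.19 in Arid1a -/- MEFs against 9.39 and 9.36 in WT MEFs (-0.21). All 4 lay lower in both Arid1a -/- libraries. Over the chain, 31 members had both Arid1a -/- libraries below both WT libraries and 0 had both above, against 28.4% and 24.6% of all genes. Of 86 cytosolic ribosomal protein genes 32 were lower (median -0.18). Without Arid1a -/- MEF replicate 2 or WT MEF replicate 1 no member was called, and without Arid1a -/- MEF replicate 1, 1 was.

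Set side by side over tumors, untreated cultures, DMSO cultures, MC38 cells and MEFs, 39 members had no call, 31 had 1 call, 2 had 2 calls and 0 had 3 or more. Cox4i2, Cox7a1 and Ndufa4l2 were tested in only 1 of these comparisons and Cox6a2 in 2. The same count over all genes is not given, so this recurrence cannot be set against a background. Ndufa13 was called in opposite directions, at -0.29 in tumors and 0.09 in MC38 cells. The call in MC38 cells was lost when either sgArid1a MC38 library was left out. Ndufc2 was called lower in both the DMSO cultures and MEFs.

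Between the IFNγ and PBS labels the members' differences were small. With the sgArid1a label 0 of 68 members were higher (20.9% of all genes tested) and 25 lower (21.3% of all genes tested), and 0 and 29 had an unadjusted p under 0.05 with limma. The median was -0.09 over the members and 0.01 over all genes, and no fall exceeded 0.31. Without the library labelled sgArid1a PBS replicate 1 the count of lower members was 14. With the sgScramble label 4 were higher (15.7% of all genes tested) and 12 lower (19.3% of all genes tested), with medians of -0.02 and 0.01, so the shares did not exceed the background. Arid1a itself was called lower with the IFNγ label, at -0.18 with the sgArid1a label and -0.35 with the sgScramble label.

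With the sgArid1a label 4 of 8 members of complex III and 7 of 12 of complex IV were lower. Uqcr10 had 12.19 and 12.13 with the IFNγ label, against 12.51 and 12.42 with the PBS label (-0.31 ± 0.04, limma adjusted p = 1.3e-05). Cox7a2l, which takes part in joining complexes III and IV into supercomplexes, had 10.18 and 10.23 with the IFNγ label against 10.58 and 10.43 with the PBS label (-0.30, limma adjusted p = 0.00029). Cox4i1 had 13.71 and 13.67 with the IFNγ label against 14.01 and 13.95 with the PBS label (-0.28 ± 0.04, limma adjusted p = 2.5e-05). None of these groups overlapped, but 37.4% of all genes tested were separated to the higher and 34.6% to the lower side in this comparison. Uqcr11, Cox5a and Cox6a1 fell by 0.28, 0.21 and 0.21. Of complex I, 3 of 7 core and 10 of 29 accessory subunits fell, among them Ndufv3 (-0.26), Ndufa7 (-0.23), Ndufs8 (-0.22) and Ndufv1 (-0.21), and of complex II only Sdha (13.22 and 13.26 with the IFNγ label against 13.34 and 13.32 with the PBS label, -0.09, limma adjusted p = 0.034). None of 8 assembly factors was called by limma (0 at an unadjusted p under 0.05). Of 13 tricarboxylic acid cycle genes, 8 were lower.

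With the sgScramble label Cox7a2l had 10.38 and 10.31 with the IFNγ label against 10.49 and 10.60 with the PBS label (-0.20), Cox4i1 13.85 and 13.74 with the IFNγ label against 13.95 and 13.99 with the PBS label (-0.18), and Ndufa12 10.03 and 9.97 with the IFNγ label against 10.19 and 10.22 with the PBS label (-0.20, limma adjusted p = 0.0042). The rises were Ndufb3 and the assembly factors Ndufaf8, Ndufaf7 and Ndufaf3, by 0.20 or less. The difference between the labels was tested as an interaction, for which limma called 0 members higher (0.696% of all genes tested) and 0 lower (0.186% of all genes tested); 0 and 3 had an unadjusted p under 0.05. Without sgScramble IFNγ replicate 2, 5 were lower for the interaction. With the sgScramble label the count of lower members was 3 without sgScramble PBS replicate 2, 6 without sgScramble IFNγ replicate 2 and 19 without sgScramble IFNγ replicate 1, and that of higher members was 0 without sgScramble PBS replicate 1, 2 without sgScramble PBS replicate 2 and 1 without sgScramble IFNγ replicate 1.

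Between guide labels within 1 treatment label, cultures labelled PBS had 0 members higher (2.37% of all genes tested) and 0 lower (0.348% of all genes tested), against 1 and 3 at an unadjusted p under 0.05 with limma. Cultures labelled IFNγ had 0 higher (4.03% of all genes tested) and 2 lower (2.70% of all genes tested), against 1 and 15 unadjusted. The 2 were the complex III subunits Uqcr10, with 12.19 and 12.13 with the sgArid1a label against 12.34 and 12.28 with the sgScramble label (-0.15, limma adjusted p = 0.037), and Uqcrh (11.98 and 11.92 with the sgArid1a label against 12.15 and 12.06 with the sgScramble label, -0.15, limma adjusted p = 0.048). Neither was called without sgScramble IFNγ replicate 1 or either sgArid1a IFNγ replicate, and 11 members were lower without sgScramble IFNγ replicate 2.

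The libraries labelled as double knockouts held the largest falls of any comparison, in short subunits of complexes I, III and IV. With the Cgas dKO label 0 of 68 members were higher (12.2% of all genes tested) and 36 lower (16.5% of all genes tested) than in sgArid1a cultures, with a median of -0.39 over the members and 0.01 over all genes; at an unadjusted p under 0.05 limma gave 0 and 41. With the Sting dKO label 0 were higher (13.9% of all genes tested) and 46 lower (17.9% of all genes tested), with medians of -0.64 and 0.01, and 1 and 47 unadjusted. Both comparisons use the same 2 sgArid1a libraries, so their values stand side by side and were not tested against each other.

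Complex IV fell most, in 10 and 11 of 12 members with the Cgas and Sting dKO labels; paired folds are given in that order. Cox7c had 5.11 and 5.37 with the Cgas dKO label and 5.54 and 5.32 with the Sting dKO label, against 8.44 and 8.04 in sgArid1a cultures (-3.00 ± 0.16 and -2.81 ± 0.16; limma adjusted p = 9.2e-09 and 1.9e-08). Cox5b had 8.64 and 8.88 with the Cgas dKO label and 8.58 and 8.30 with the Sting dKO label, against 10.39 and 10.36 in sgArid1a cultures (-1.62 and -1.93). Cox7b had 11.25 and 11.48 with the Cgas dKO label and 11.49 and 11.44 with the Sting dKO label, against 12.97 and 13.17 in sgArid1a cultures (-1.71 and -1.60). For each of these subunits every double-knockout library lay more than 1 log2 unit below every sgArid1a library. Cox8a had 9.85 and 10 with the Cgas dKO label and 9.86 and 9.64 with the Sting dKO label, against 11.33 and 11.31 in sgArid1a cultures (-1.39 and -1.57). It shares 0% of its 31-base words with annotated transcripts of another gene. This measure counts exact matches only and leaves out copies that are not annotated as transcripts. Cox6c (-1.35 and -1.20), Cox7a2l (-1.16 and -1.10), Ndufa4 (-0.82 and -1.02) and Cox7a2 (-0.83 and -1.01) also fell with both labels. Cox4i1 was not called, at -0.11 and -0.26.

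Of the 29 complex I accessory subunits 18 fell with the Cgas dKO label and 23 with the Sting dKO label. Ndufb4 had 7.30 and 7.58 with the Cgas dKO label and 6.86 and 6.41 with the Sting dKO label, against 8.59 and 8.46 in sgArid1a cultures (-1.09 and -1.89). Ndufb11 had 9.70 and 10.07 with the Cgas dKO label and 9.68 and 9.47 with the Sting dKO label, against 11.12 and 11.01 in sgArid1a cultures (-1.18 and -1.49). Ndufa12, with 59.0% of its 31-base words shared, the largest share of any member, was called with neither label (0.13 and -0.05). Of the 7 core subunits 2 and 3 fell, among them Ndufs3 with -0.69 and -1.08, while Ndufs1 (-0.15 and -0.02) and Ndufv1 (0.12 and -0.05) were not called. Of 8 assembly factors 1 and 2 fell, with Ndufaf8 at -0.72 and -1.08.

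In complex II 1 of 4 members was lower with each label. Sdhd, a membrane anchor, had 11.52 and 11.65 with the Cgas dKO label and 11.70 and 11.58 with the Sting dKO label, against 11.90 and 11.93 in sgArid1a cultures (-0.33 and -0.28). Sdha (0.05 and -0.04) and Sdhb (-0.23 and -0.22) were not called. Complex III had 4 and 6 of 8 lower, in its small subunits Uqcrh (-1.11 and -1.29), Uqcrb (-0.99 and -1.37) and Uqcrq (-0.75 and -1.26) and in Uqcrfs1 (-0.29 and -0.39), whereas the large core proteins were not called, Uqcrc1 at 0.12 and 0.07 for example.

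Transcript length and sequence sharing moved with these falls across all genes. Over all genes with transcripts of up to 600 bases the medians were -0.50 with the Cgas dKO label and -0.64 with the Sting dKO label, against 0.06 and 0.07 over those of more than 2000 bases. The members gave -0.72 and -0.95 up to 600 bases, -0.38 and -0.64 from 600 to 1000, -0.22 and -0.27 from 1000 to 2000, and -0.04 and -0.03 above. Genes sharing at least 20% of their 31-base words had medians of -0.25 and -0.25 over all genes and -0.91 and -1.09 over the 19 members among them. Among the 35 members sharing under 5%, 15 and 19 were lower (medians -0.21 and -0.29). Over all 7647 genes sharing under 5%, 681 and 824 were lower (medians 0.04 and 0.05). Of 15 members of up to 1000 bases that share under 5%, 9 and 11 were lower (medians -0.58 and -0.61). Of all 341 such genes 107 and 156 were lower (medians -0.21 and -0.31).

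Other gene lists, chosen by name and not by length, held falls in the same libraries. With the Cgas and Sting dKO labels 78 and 79 of 86 cytosolic ribosomal protein genes were lower (medians -1.62 and -1.64). So were 22 and 36 of 77 mitochondrial ribosomal protein genes and 9 and 10 of 16 ATP synthase genes. The part of transcript length or sequence sharing in the members' falls was not tested. Without the library labelled Cgas dKO replicate 1, 23 members were lower.

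**Figure D4:**
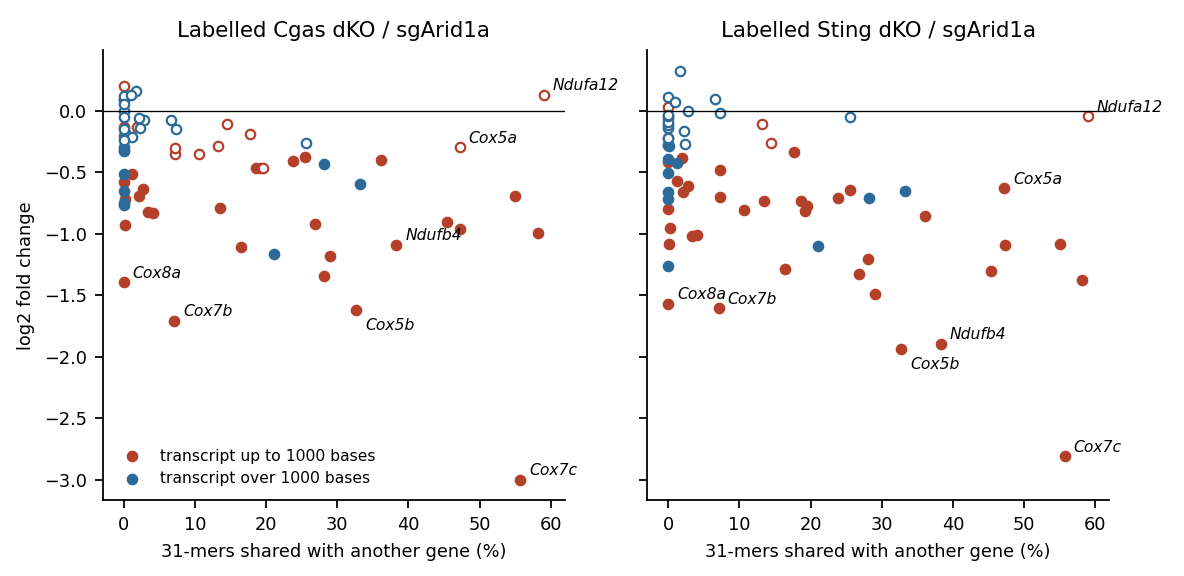
Log2 fold change of each member in libraries labelled Cgas dKO (left) and Sting dKO (right) against sgArid1a cultures, over the percent of its 31-base words found in transcripts of another gene; red points are transcripts of up to 1000 bases, blue points longer ones, and filled points are called at an adjusted p under 0.05. Cox7c lies lowest at -3.00 and -2.81, Cox8a falls by 1.39 and 1.57 with 0% shared, and Ndufa12 lies at 0.13 and -0.05 with 59.0% shared.

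BD98 raised most of the chain in sgScramble cells. Of 63 members 44 were higher (24.5% of all genes tested) and 1 lower (25.4% of all genes tested) with BD98 than with DMSO at an adjusted p under 0.05 in edgeR's quasi-likelihood test, with a median log2 fold change of 0.26 over the members and 0.01 over all genes. All genes tested here were the 12843 that passed edgeR's count filter, whereas members also had to reach the level minimum, as 8956 genes did. These shares thus cover unlike sets, and the share called among genes at the minimum is not given. Both BD98 libraries lay above both DMSO libraries for 52 members, against 50.4% of all genes with a mean of at least 4. Both lay below for 1 member, against 27.1% of these genes, so separation to the higher side was more frequent over all genes too. Without library scaling beyond the total (plain CPM), the median was 0.38 over the members and 0.11 over all genes. On plain CPM, which keeps this shift of all genes, the mean log2(CPM + 1) over the members was 7.174 and 7.028 with BD98, against 6.694 and 6.695 with DMSO.

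In complex III 7 of 8 subunits were higher, with a median of 0.44. Uqcrb, a small subunit on the matrix side, had 47.1 and 53.9 CPM with BD98, against 24.1 and 26.8 CPM with DMSO (1.0 ± 0.11, edgeR adjusted p = 1.7e-08). Uqcr10 had 238 and 208 CPM with BD98 against 127 and 140 CPM with DMSO (0.74 ± 0.08, edgeR adjusted p = 6.9e-09). Both subunits were higher in each BD98 library than in either DMSO library. Uqcr11 (0.58), Uqcrh (0.45), Uqcrq (0.43), Uqcrfs1 (0.43) and Uqcrc2 (0.22) also rose, and Uqcrc1 (0.06) was not called.

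Of complex I, 21 of 27 accessory subunits, 5 of 6 assembly factors and 3 of 7 core subunits rose. Ndufc1 had 74.2 and 61.7 CPM with BD98 against 40.7 and 43.6 CPM with DMSO (0.69 ± 0.10, edgeR adjusted p = 1.1e-06). Ndufb6, whose promoter is shown above, had 81.1 and 67 CPM with BD98 against 45 and 47.7 CPM with DMSO (0.68 ± 0.09, edgeR adjusted p = 7e-07). The assembly factor Ndufaf4, whose promoter holds an NRF1 motif, had 42.6 and 44.3 CPM with BD98 against 27.7 and 25.9 CPM with DMSO (0.69 ± 0.10, edgeR adjusted p = 1.3e-06). The gap between groups was wider than that within them for each of these genes. Ndufb4, Ndufb11, Ndufb8 and Ndufa1 rose by 0.64, 0.59, 0.55 and 0.55. The core subunits called were Ndufs3 (0.32), Ndufs1 (0.20) and Ndufv2 (0.19), and Ndufs8 (-0.13), Ndufv1 (-0.04) and Ndufs7 (0.06) were among those not called. The only fall was Ndufa10, a nucleoside kinase-like accessory subunit, with 87.4 and 85.9 CPM with BD98 against 102 and 96.3 CPM with DMSO (-0.19 ± 0.08, edgeR adjusted p = 0.044). Without BD98 replicate 1 there were 5 falls, and without BD98 replicate 2 or either DMSO replicate there were none.

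In complex II, Sdhd had 288 and 269 CPM with BD98 against 215 and 220 CPM with DMSO (0.36, edgeR adjusted p = 9e-05), Sdhc rose by 0.19, and Sdha (0.12) and Sdhb (-0.14) were not called. In complex IV 6 of 11 rose, led by Cox7b, encoded on the X chromosome, with 676 and 637 CPM with BD98 against 467 and 439 CPM with DMSO (0.53 ± 0.07, edgeR adjusted p = 5.7e-07). Cox7a2 (0.34), Cox6b1 (0.28), Cox5a (0.25), Cox6a1 (0.23) and Cox6c (0.21) rose as well. Cox4i1 (0.12), Cox8a (0.05), Ndufa4 (-0.05) and Cox7a2l (-0.06) were not called.

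Below the level minimum, and so outside the counts above, Ndufaf8 had 22.6 and 14.9 CPM with BD98 against 10.6 and 9.90 CPM with DMSO (0.86, edgeR adjusted p = 6.8e-05), and Cox7a1 had 19 and 32 reads with BD98 against 13 and 2 with DMSO (2.16 ± 0.51). Cox7c (-0.08) was not called. Of the members with a promoter window, 15 of 22 with an NRF1 or ETS motif were called higher (median 0.27), as were 22 of 31 without one (median 0.30).

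The neighbouring gene lists rose to differing degrees. ATP synthase had 13 of 16 genes higher and 0 lower, with a median of 0.29 against 0.26 over the members. Assembly factors outside the members had 18 of 37 higher and 0 lower (median 0.26). The mitochondrial ribosome had 28 of 76 higher and 2 lower (median 0.15), and the tricarboxylic acid cycle 5 of 13 higher and 0 lower (median 0.15). Of 15 regulators of mitochondrial gene expression 3 were higher and 6 lower, and of 77 cytosolic ribosomal protein genes 4 were higher and 12 lower. All 7 melanocyte markers were lower, with a summed level of 13.50 and 13.41 with BD98 against 15.03 and 15.02 with DMSO. Length moved with the result as well: members of up to 600 bases had a median of 0.36 (18 of 22 higher) and those of 1000 to 2000 bases 0.19 (11 of 19 higher), while all genes had medians of 0.11 and 0.07. Over 2000 bases the median was 0.27 for 6 members and -0.03 for all genes. The part of length in the rise was not tested.

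**Figure D5:**
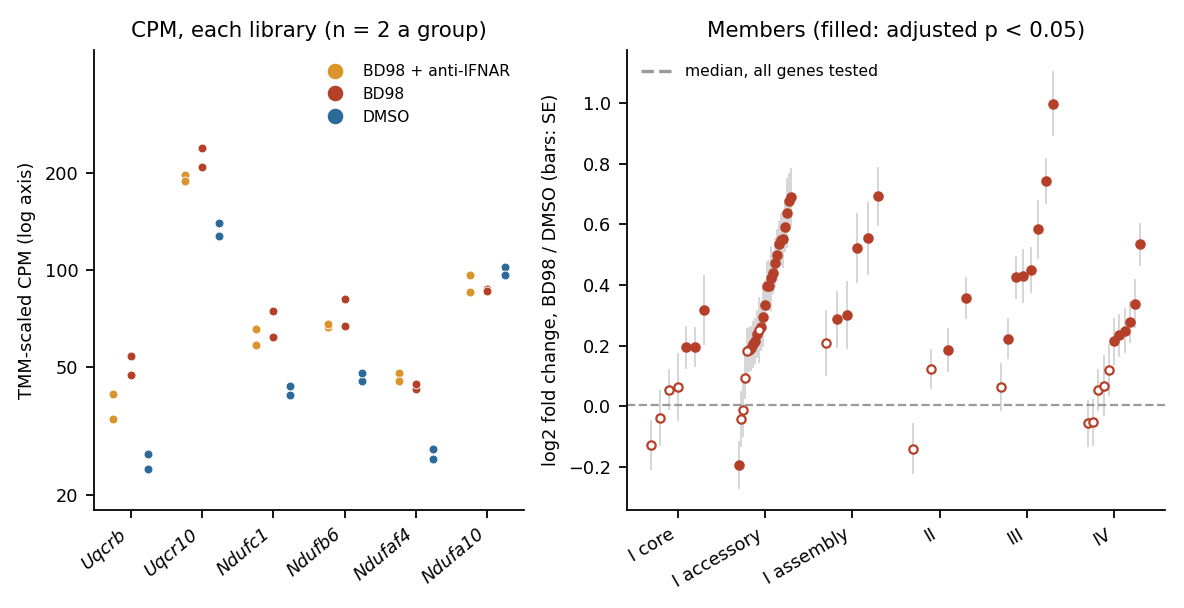
Left, TMM-scaled CPM (log axis) of 6 members in each library with BD98 + anti-IFNAR, BD98 or DMSO (n = 2 a group); right, log2 fold change of BD98 against DMSO for each of the 63 members by complex, with bars for the SE, filled points called at an adjusted p under 0.05 and a dashed line at the median of all genes tested. Uqcrb lies highest at 1.0 and Ndufa10 is the only filled point below 0, at -0.19.

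With anti-IFNAR antibody added to BD98 a few subunits of complexes I and III were lower. Of 63 members 0 were higher (0.109% of all genes tested) and 8 lower (1.39% of all genes tested) than with BD98 alone, against 0 and 22 at an unadjusted p under 0.05 in edgeR; DESeq2 called 0 higher and 5 lower. Ndufb4 had 23.8 and 20.3 CPM with BD98 and anti-IFNAR, against 34 and 29.8 CPM with BD98 (-0.54 ± 0.11, edgeR adjusted p = 0.0096), Uqcrq 442 and 408 CPM with both agents against 658 and 491 CPM with BD98 (-0.43, edgeR adjusted p = 0.0073) and Uqcrb 41.1 and 34.5 CPM with both agents against 47.1 and 53.9 CPM with BD98 (-0.42, edgeR adjusted p = 0.031). The other falls were Ndufa2 (-0.42), Ndufb11 (-0.38), Ndufc2 (-0.32), Uqcrh (-0.30) and Ndufv2 (-0.28), and none was in complexes II or IV. Ndufaf4, with 47.9 and 45 CPM with both agents against 42.6 and 44.3 CPM with BD98, was not called. On plain CPM, the mean over the members was 7.030 and 6.984 with both agents, against 7.174 and 7.028 with BD98 alone, where replicate 1 was the highest. Transcripts of up to 600 bases had a median of -0.17 over 22 members and -0.16 over all genes, and those of 1000 to 2000 bases -0.03 and -0.04; the part of length in these falls was not tested. The 2 comparisons share the BD98 libraries and the same set of all genes tested, which includes genes below the level minimum. The count of lower members rested on single libraries: it was 0 without BD98 anti-IFNAR replicate 2, 4 without BD98 replicate 1, with 2 members then higher, and 24 without BD98 replicate 2.

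In sgArid1a cells no member was called with either block of interferon signalling. Anti-IFNAR gave 0 of 68 higher (0% of all genes tested) and 0 lower (0.0171% of all genes tested) against untreated sgArid1a cultures, with 0 and 2 at an unadjusted p under 0.05 in limma and a median of -0.05. Ruxolitinib gave 0 higher (0.0255% of all genes tested) and 0 lower (0.195% of all genes tested) against DMSO, with 0 and 6 unadjusted in limma and a median of -0.03. Few genes of any kind were called in these comparisons. Cox4i1 differed by -0.05 with anti-IFNAR and -0.02 with ruxolitinib, Ndufs1 by 0.01 and 0.11, and Uqcrfs1 by -0.06 and 0.10.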

How the data were processed

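The submitters' processing notes name STAR 2.5.3a, HOMER, edgeR and DESeq2 as tools and GRCm38/mm10 as the build. Per the labels, libraries were made with a stranded mRNA kit from polyA RNA. Per the file headers, the HOMER commands state no strand option, so reads of antisense and overlapping genes may be counted together, and counts of genes with near-identical copies are uncertain. The BD98 table holds raw exon counts per gene, as deposited. In the other 7 gene tables the deposited values are log2 levels that the authors had normalized, and low ones are pulled towards each other. Tables were normalized separately, so values were tested only within a table. The 4 total RNA libraries were not analysed here.

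The members and gene lists were chosen with earlier results of these data known. Genes were named by a rule: the 3 largest rises and falls called in a comparison, a panel of subunits and isoforms, and the targeted genes; other members named were chosen after their values were seen. On log2 values limma 3.58.1 (limma-trend, no pseudocount) was run on genes with a mean of at least 4, with all groups of a table in 1 fit. On counts edgeR 4.0.16 was run with TMM, filterByExpr and the quasi-likelihood test, with DESeq2 1.42.0 as an alternative, in R 4.3.3. Calls rest on a Benjamini-Hochberg adjusted p under 0.05, with the adjustment over all genes tested. Each error after ± is the standard error of a log2 fold change with n = 2 libraries a group. CPM values are TMM-scaled, except where plain CPM is stated. A level per kilobase is the mean log2 value minus log2 of the transcript length in kilobases. Shared 31-base words come from GENCODE vM21 transcripts, and promoter windows from RefSeq. The scripts were tested on simulated data. Alternatives were quantile normalization or DESeq2, no filter on low values, only the groups compared in a fit, the replicate number as a block, members sharing under 5% of their 31-base words, and each library left out in turn.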

Additional observations from a re-analysis of the deposited data

Results flagged for a closer look

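Ndufa13, an accessory subunit of complex I, was called in opposite directions after Arid1a loss in tumors and in MC38 cells. Both sgArid1a tumor libraries lay below both sgScramble tumor libraries (12.52 and 12.56 log2 units in sgArid1a tumors against 12.86 and 12.80 in sgScramble tumors, -0.29, limma adjusted p = 0.0010). Both sgArid1a MC38 libraries lay above both sgScramble MC38 libraries (10.65 and 10.61 in sgArid1a cells against 10.54 and 10.54 in sgScramble cells, 0.09, limma adjusted p = 0.044). The tables were normalized separately and the difference between the effects was not tested. Ndufa13 was 1 of 69 members compared in this way. Its call in MC38 cells was lost when either sgArid1a MC38 library was left out, and also with no filter on low values. In untreated cultures, DMSO cultures and MEFs Ndufa13 was not called.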

How the results depend on the processing

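Counts of members called moved by more than 1.5 times under these alternatives; the causes were not tested. With quantile normalization 10 were higher in tumors, 0 lower in MC38 cells, 1 lower in MEFs and 1 higher with the Sting dKO label. With no filter on low values 1 was lower in the DMSO cultures, 0 were higher and 1 lower in MC38 cells, 0 lower by guide label with the IFNγ label, and 1 higher and 7 lower with the IFNγ label under the sgScramble label. With only the groups compared in the fit, 0 were higher in untreated cultures, 1 higher by guide label with the PBS label, 0 lower by guide label with the IFNγ label, 1 higher with the IFNγ label under the sgScramble label, 1 higher with the Sting dKO label, 0 lower with BD98 and 5 lower for anti-IFNAR added to BD98. DESeq2 gave 39 higher and 0 lower with BD98, and 5 lower for anti-IFNAR added to BD98. Members sharing under 5% of their 31-base words gave 15 and 19 lower with the Cgas and Sting dKO labels, by construction out of fewer members.

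With the replicate block 10 members were lower in tumors, 1 in the DMSO cultures and 34 in MEFs; other counts kept within 1.5 times. Replicate numbers are not stated to pair libraries, and the correlation of same-numbered libraries ranged from -0.51 in tumors to 0.69 in MEFs. No paired analysis was possible for the Sting dKO label because its columns carry no shared number.

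Leaving out 1 library in turn gave 3 to 5 higher and 11 to 18 lower in tumors, 0 to 10 and 0 to 4 in untreated cultures, 0 to 4 and 0 to 34 in DMSO cultures, 0 to 5 and 0 to 2 in MC38 cells, 0 to 5 lower in MEFs, 0 to 11 lower by guide label with the IFNγ label, 0 to 5 and 3 to 19 with the IFNγ label under the sgScramble label, 0 to 1 and 14 to 24 under the sgArid1a label, 0 to 5 lower for the interaction, 23 to 35 lower with the Cgas dKO label, 0 to 1 and 31 to 48 with the Sting dKO label, 32 to 45 and 0 to 5 with BD98, and 0 to 2 and 0 to 24 for anti-IFNAR added to BD98. Where an arm then held 1 library, it was assumed to vary like the other groups. For the 77 named genes called, 466 of 597 values stayed past the threshold, 131 did not, and 0 changed direction. With 2 libraries a group, differences near the standard errors printed beside the folds were not detectable.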
